A study of Mus musculus with 24 samples.

Results

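The genes described here take part in the handling of fuel by heart mitochondria: 9 genes grouped as pyruvate and ketone fuel selection, out of 25229 gene symbols counted. They are the pyruvate dehydrogenase kinases Pdk1, Pdk2, Pdk3 and Pdk4, the mitochondrial pyruvate carrier subunits Mpc1 and Mpc2, the ketone body enzymes Bdh1 and Oxct1, and the mitochondrial uncoupling protein Ucp3. They were chosen by name, with earlier results of these data known, and all 9 were among the 13571 genes with enough reads to be tested. Poly-A RNA of the left ventricle and septum was sequenced from male C57BL/6 mice, in 4 groups of 6 libraries. TAC/Benzene mice had transverse aortic constriction (TAC), a narrowing of the aorta that loads the left ventricle with pressure, and then breathed 50 ppm benzene. TAC/Air mice had the same surgery and breathed HEPA-filtered air, and Sham/Benzene and Sham/Air mice had sham surgery before either exposure. Exposure began after 1 week of recovery and ran for 6 weeks, on 5 days of the week for 6 hours. The study asked how inhaled benzene acts on the heart under pressure overload. The labels give no genetic change in any group and no age of the mice, and no label ties a library to a named mouse, so each p-value here reflects spread among libraries, which may be technical.

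Pyruvate made from glucose or lactate enters mitochondria through a carrier built of the Mpc1 and Mpc2 subunits and is turned into acetyl-CoA by the pyruvate dehydrogenase complex. The Pdk kinases phosphorylate that complex and switch it off, and its phosphatases switch it on again. Pdk4 is the kinase known to be raised in heart by fasting and fatty acids, through PPAR-alpha and its partners. Ketone bodies bypass this gate: Bdh1 oxidises beta-hydroxybutyrate to acetoacetate, and Oxct1 adds coenzyme A to acetoacetate so that it can be split into acetyl-CoA. Ucp3 lies in the inner mitochondrial membrane of heart and skeletal muscle, follows fatty acid supply, and is another known PPAR-alpha target.

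The 250 bases before the annotated gene start are shown for Bdh1, the member with the highest TAC fold change, for Ucp3, the member with the lowest, and for Pdk4, the kinase most closely tied to fatty acid signals. They are RefSeq sequences of the GRCm38.p6 build, read 5′ to 3′ on the strand of the gene, and capitals mark each match to the nuclear receptor half-site AGGTCA.
Bdh1 promoter, first of its annotated starts, chr16:31422047-31422296, plus strand: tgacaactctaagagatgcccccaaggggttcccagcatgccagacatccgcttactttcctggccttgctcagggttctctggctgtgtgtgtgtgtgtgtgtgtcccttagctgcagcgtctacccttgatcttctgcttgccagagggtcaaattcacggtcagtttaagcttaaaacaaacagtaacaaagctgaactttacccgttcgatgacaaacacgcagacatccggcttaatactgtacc
Ucp3 promoter, chr7:100472741-100472990, plus strand: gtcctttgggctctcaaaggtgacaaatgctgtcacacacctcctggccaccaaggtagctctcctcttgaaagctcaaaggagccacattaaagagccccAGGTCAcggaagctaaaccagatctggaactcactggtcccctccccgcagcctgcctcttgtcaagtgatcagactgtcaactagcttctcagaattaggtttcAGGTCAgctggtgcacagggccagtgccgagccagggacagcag
Pdk4 promoter, chr6:5496279-5496528, minus strand: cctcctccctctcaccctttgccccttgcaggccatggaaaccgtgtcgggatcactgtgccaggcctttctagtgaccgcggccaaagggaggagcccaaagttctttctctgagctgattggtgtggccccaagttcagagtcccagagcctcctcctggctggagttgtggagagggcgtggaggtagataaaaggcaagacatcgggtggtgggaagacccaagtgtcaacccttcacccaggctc
The Ucp3 window held the half-site at 2 places on the strand of the gene, starting 149 and 44 bases before the gene start. The Bdh1 and Pdk4 windows held none. RefSeq gave 13 such windows for the 9 genes, and the only other half-site lay in 1 of those of Mpc1, on the opposite strand. Of 32851 promoter windows of this length, 14% held AGGTCA on either strand. The PPAR element (the half-site in direct repeat with 1 base between), the ERR element TCAAGGTCA, which overlaps the half-site, and the FOXO element GTAAACA were in none of the 13 windows. Of all windows, 0.0335% held the PPAR element, 0.387% the ERR element and 3.17% the FOXO element. The HIF core ACGTG was in windows of Pdk2, Pdk3 and Oxct1 and in 16.6% of all windows. A match is a description of letters and not a site shown to be used.

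Total counts ranged from 10016860 to 13724100 in TAC/Benzene, from 10479981 to 13581729 in TAC/Air, from 9396445 to 14632231 in Sham/Benzene and from 4170660 to 12718494 in Sham/Air. Levels are given in CPM, read counts brought to a shared library size after TMM scaling. The Sham/Air replicate 1 library had the lowest total and stood apart from the other 23, with Spearman correlations of 0.852 to 0.913 with them. Libraries of every group also differed in how a gene's count followed the GC content of its transcript. This was measured relative to the average library, on each gene's log2 CPM minus its mean over the 24 libraries. The rank correlation of that deviation with GC content ran from -0.177 to 0.496 in TAC/Benzene and from -0.47 to 0.459 in TAC/Air. It ran from -0.412 to 0.524 in Sham/Benzene and from -0.71 in Sham/Air replicate 1 to 0.508 in another Sham/Air library. For the 9 genes, calls that change without that library, or when the GC trend is removed, are given with both values. In bulk tissue, fewer cells of a type and less RNA per cell cannot be told apart.

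In benzene, TAC hearts held more Bdh1 RNA and less Ucp3 and Mpc2 RNA than sham hearts. This was 1 of 9 genes called higher, where 8.67% of all tested genes were, and 2 of 9 called lower, where 7.97% were (edgeR's quasi-likelihood test, adjusted p under 0.05), and 6 did not pass. In air the same 3 genes passed in the same directions, and Pdk3 passed as higher. That made 2 of 9 called higher, against 8.81% of all genes, and 2 of 9 called lower, against 7.35%, and 5 did not pass. Called in either direction were 16.6% of genes in benzene and 16.2% in air. In benzene the values of TAC and sham libraries did not overlap for Bdh1 alone among the 9, against 13.9% of all genes. In air they did not overlap for 3 of the 9 (Bdh1, Ucp3 and Mpc2), against 9.49%. The median log2 fold change of the 9 genes was -0.14 in benzene, beside -0.0045 over all genes tested, and -0.23 in air, beside -0.013.

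**Figure D1:**
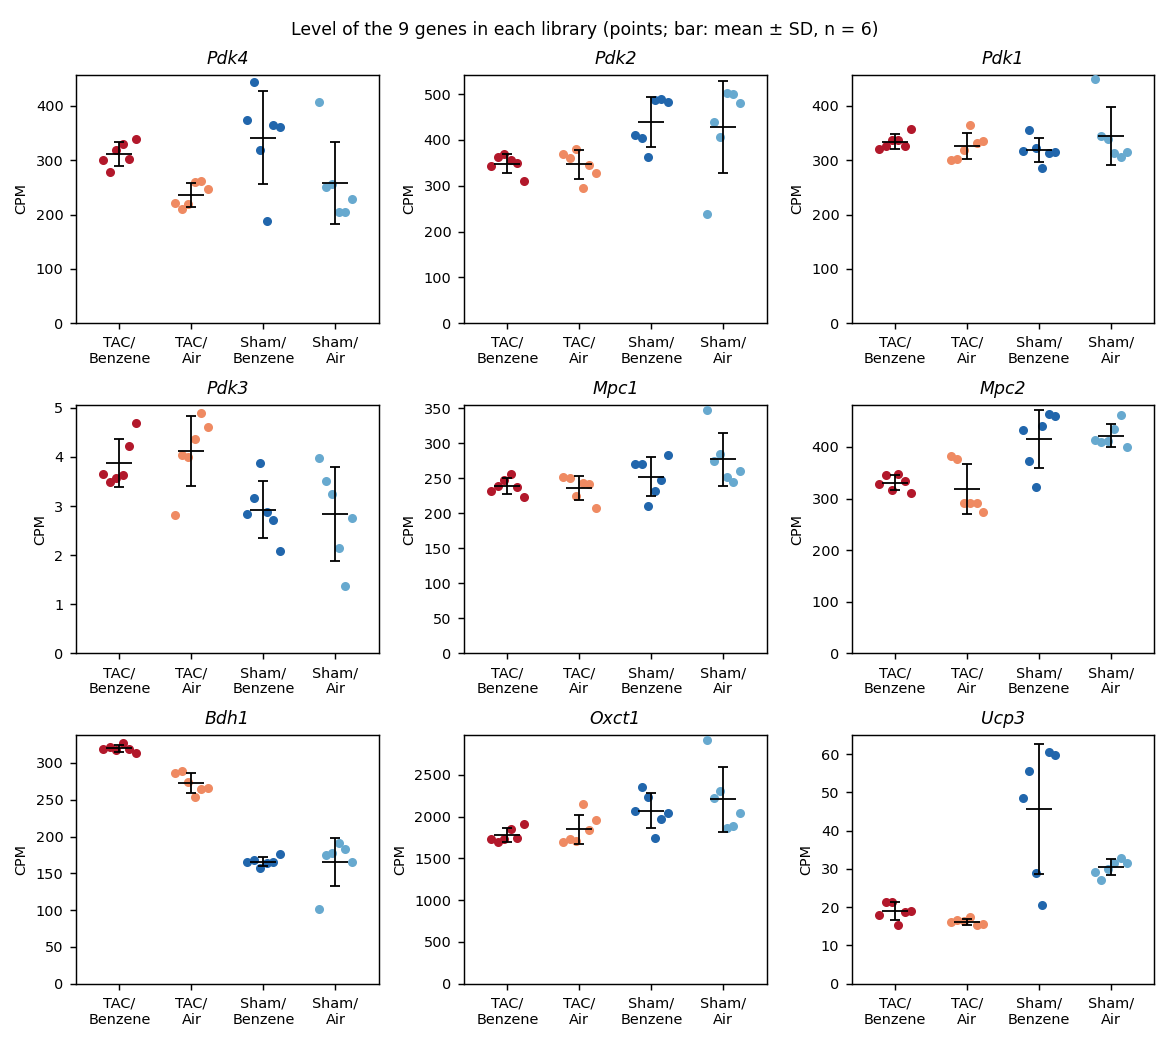
Level of each of the 9 genes in every library, in CPM on the vertical axis, for TAC/Benzene, TAC/Air, Sham/Benzene and Sham/Air from left to right. Points are libraries and bars are the mean ± SD of 6. Bdh1 sits between 254 and 327 CPM in all TAC libraries and between 101 and 191 CPM in all sham libraries, while Ucp3 in Sham/Benzene spreads from 20.6 to 60.7 CPM.

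Bdh1 had the clearest order of groups. In TAC/Benzene its lowest, median and highest levels were 313.8, 319.2 and 326.7 CPM, against 253.8, 270.0 and 289.4 CPM in TAC/Air. Sham/Benzene had 156.8, 165.1 and 175.7 CPM and Sham/Air 101.1, 176.2 and 191.5 CPM. Every TAC library was above every sham library, and every TAC/Benzene library was above every TAC/Air library. The 2 sham groups overlapped throughout, and the lowest value of all belonged to Sham/Air replicate 1. With TAC, Bdh1 was 1.93-fold the sham level in benzene (log2 fold change 0.95 ± 0.10 SE, adjusted p = 8.83e-08) and 1.64-fold in air (0.72 ± 0.10, adjusted p = 9.01e-06; edgeR). Over 33 alternative settings, each of which called it, the log2 fold change stayed between 0.89 and 0.96 in benzene and between 0.61 and 0.76 in air.

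Oxct1, the next enzyme of ketone use, did not follow Bdh1. Its mean level was 1779 ± 82.8 CPM in TAC/Benzene, 1847 ± 177 CPM in TAC/Air, 2072 ± 214 CPM in Sham/Benzene and 2208 ± 389 CPM in Sham/Air (SD, n = 6 each). All 4 groups overlapped. The log2 fold change with TAC was -0.22 ± 0.10 in benzene (adjusted p = 0.143) and -0.26 ± 0.10 in air (adjusted p = 0.077, edgeR), neither past the threshold. It passed as lower in both comparisons when the GC trend was removed by principal transcripts, with adjusted p = 0.00333 in benzene and 0.00203 in air, and by longest transcripts (0.0233 and 0.00799). In benzene it also passed with limma-voom (0.00814), with only the 2 groups in the fit (0.0257) and without Sham/Air replicate 1 (0.0233). In air it also passed with DESeq2 (0.0371) and without TAC/Air replicate 4 (0.0373), Sham/Air replicate 4 (0.0359) or Sham/Air replicate 5 (0.0395).

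The number of Oxct1 reads per Bdh1 read sets these enzymes against each other within a library. It ran from 5.29 to 6.08 in TAC/Benzene and from 5.96 to 8.46 in TAC/Air, against 10.7 to 14.3 in Sham/Benzene and 9.76 to 28.8 in Sham/Air. The ranges of TAC and sham libraries were apart in both exposures. The highest ratio was that of Sham/Air replicate 1. The ratio reuses the Bdh1 counts above, which already set every TAC library apart from every sham library, and is no separate check of them. No test was made of this ratio.

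**Figure D2:**
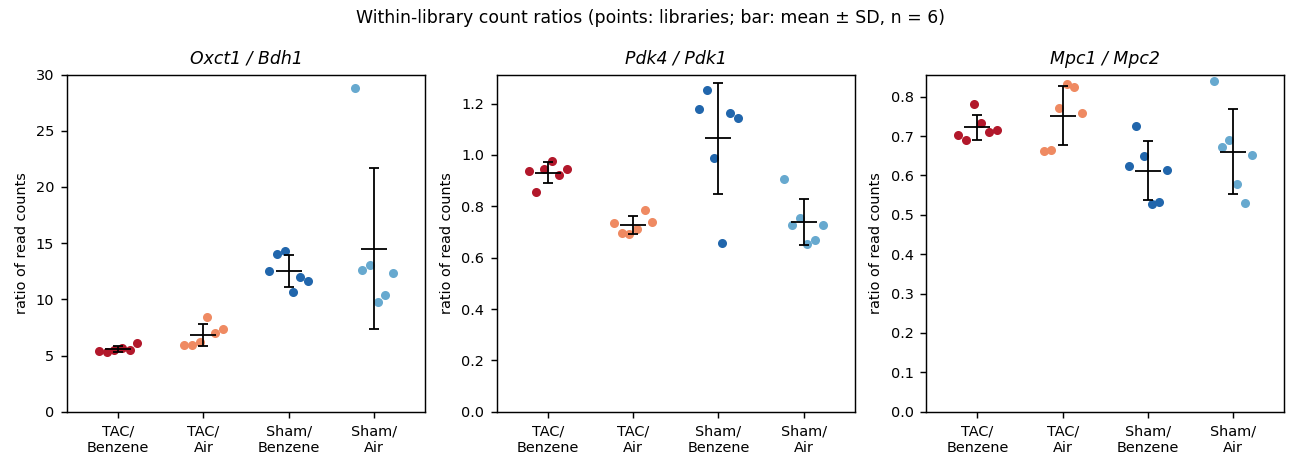
Ratios of read counts within each library (vertical axis, no unit) for Oxct1 over Bdh1, Pdk4 over Pdk1 and Mpc1 over Mpc2, with groups from left to right as TAC/Benzene, TAC/Air, Sham/Benzene and Sham/Air. Points are libraries and bars the mean ± SD of 6. Oxct1 over Bdh1 stays at or below 8.46 in TAC libraries and at or above 9.76 in sham libraries, and Pdk4 over Pdk1 in TAC/Benzene lies above all TAC/Air libraries.

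Among the kinases, Pdk4 carried no TAC difference past the threshold. Its lowest, median and highest levels were 278.4, 310.1 and 338.3 CPM in TAC/Benzene and 210.5, 233.9 and 261.0 CPM in TAC/Air. In sham hearts they were 188.2, 362.6 and 444.6 CPM with benzene and 204.0, 239.8 and 406.6 CPM in air. TAC and sham libraries overlapped in both exposures. The log2 fold change with TAC was -0.13 ± 0.16 in benzene (95% interval -0.46 to 0.19, adjusted p = 0.678) and -0.13 ± 0.16 in air (interval -0.45 to 0.20, adjusted p = 0.662; edgeR). Without Sham/Air replicate 1, whose 406.6 CPM was far above its group, the value in air was 0.05.

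Pdk2, a kinase found in most tissues, passed as lower with TAC under some settings only. Means were 348 ± 20.8 CPM in TAC/Benzene, 347 ± 31.4 CPM in TAC/Air, 440 ± 54.3 CPM in Sham/Benzene and 428 ± 100 CPM in Sham/Air (SD, n = 6 each). The Sham/Air replicate 1 library had 238.1 CPM, below every TAC library, and the other 5 of its group had 407 CPM or more. With all libraries the log2 fold change was -0.34 ± 0.13 in benzene (adjusted p = 0.0756) and -0.31 ± 0.13 in air (adjusted p = 0.113, edgeR). Without that library it was -0.34 in benzene (adjusted p = 0.00153) and -0.43 in air (2.48e-04). With the GC trend removed by principal transcripts it was -0.41 in benzene (7.84e-05) and -0.52 in air (3.48e-06), and by longest transcripts it was -0.42 (2.32e-04) and -0.54 (1.11e-05). By limma-voom it passed in both comparisons (2.20e-05 in benzene and 2.56e-05 in air). In benzene it also passed with only the 2 groups in the fit (0.00423) and without Sham/Benzene replicate 3 (0.0435).

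Pdk1, a kinase known as a target of the hypoxia factor HIF1, had nearly level means: 334 ± 13.4 CPM in TAC/Benzene, 326 ± 24.2 CPM in TAC/Air, 318 ± 22.2 CPM in Sham/Benzene and 344 ± 53.5 CPM in Sham/Air. Its log2 fold change with TAC was 0.07 ± 0.09 in benzene (95% interval -0.11 to 0.25, adjusted p = 0.687) and -0.08 ± 0.09 in air (interval -0.26 to 0.10, adjusted p = 0.591; edgeR). Changes within those intervals are not excluded by these libraries.

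Pdk3, the scarcest kinase, rested on 14 to 59 reads per library. It had 3.88 ± 0.48 CPM in TAC/Benzene, 4.12 ± 0.72 CPM in TAC/Air, 2.93 ± 0.59 CPM in Sham/Benzene and 2.84 ± 0.96 CPM in Sham/Air. All groups overlapped. In benzene the log2 fold change with TAC, 0.40 ± 0.19, did not pass (adjusted p = 0.17), though it did by limma-voom (0.025). In air Pdk3 was called 1.53-fold higher (0.61 ± 0.20, adjusted p = 0.0342, edgeR). The call in air was lost when any 1 of 7 libraries was left out. These were TAC/Air replicates 2, 4, 5 and 6 and Sham/Air replicates 4, 5 and 6, and the lowest value, 0.44 with adjusted p = 0.103, came without Sham/Air replicate 5. It was also lost with only the 2 groups in the fit (adjusted p = 0.14) and with the replicate number as a block (0.0674).

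As shares of the reads of all 4 kinases, Pdk4 took 31.2 ± 1.59% in TAC/Benzene, 25.9 ± 1.92% in TAC/Air, 30.7 ± 5.89% in Sham/Benzene and 24.9 ± 6.35% in Sham/Air. The lowest TAC/Benzene share, 28.7%, was above the highest TAC/Air share, 28.1%. Pdk2 took 34.9 ± 2.26% in TAC/Benzene, 38.0 ± 3.89% in TAC/Air, 40.1 ± 6.05% in Sham/Benzene and 41.7 ± 10.4% in Sham/Air. Pdk3 stayed at or below 0.518% in every library. Shares add up to a whole within a library and were not tested.

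**Figure D3:**
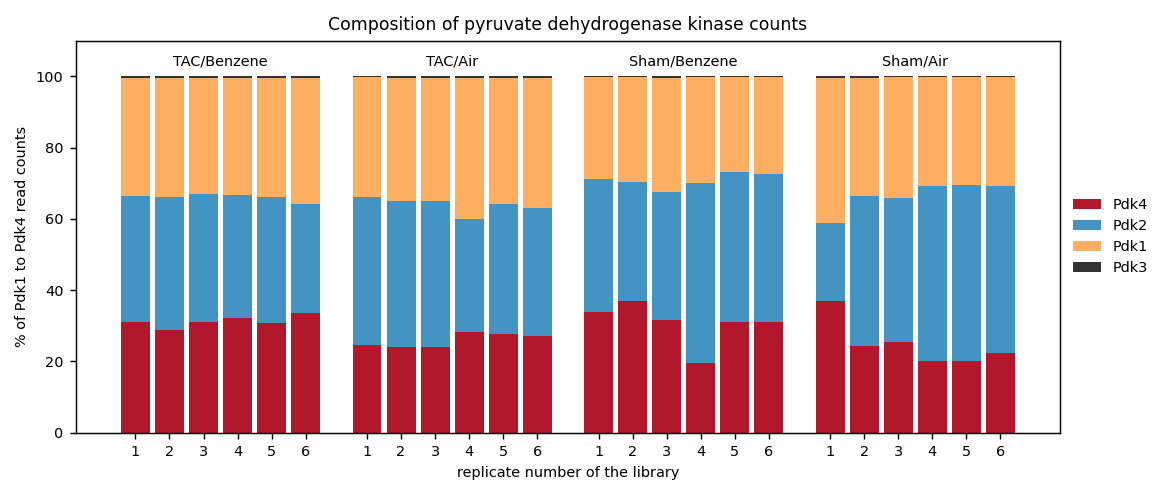
Composition of the pyruvate dehydrogenase kinase reads in each of the 24 libraries, as percent of the summed Pdk1 to Pdk4 counts (vertical axis), with replicate numbers along the horizontal axis and groups as TAC/Benzene, TAC/Air, Sham/Benzene and Sham/Air. Pdk4 takes 28.7% to 33.5% of reads in TAC/Benzene and 23.9% to 28.1% in TAC/Air. Sham/Air replicate 1 has the smallest Pdk2 share, 21.7%.

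Mpc2 fell with TAC in both exposures, and Mpc1 did not pass. Mpc2 had a lowest, median and highest level of 311.2, 331.3 and 348.0 CPM in TAC/Benzene and 274.0, 292.3 and 381.6 CPM in TAC/Air. In Sham/Benzene it had 322.6, 436.9 and 463.3 CPM and in Sham/Air 399.0, 413.0 and 461.0 CPM. In benzene TAC and sham libraries overlapped at Sham/Benzene replicate 3, and in air every TAC library was below every sham library. The log2 fold change was -0.33 ± 0.10 in benzene (adjusted p = 0.0173) and -0.41 ± 0.10 in air (adjusted p = 0.00356, edgeR). The call held without any single library. It ended when the GC trend was removed by the longest annotated transcript of Mpc2, of 4015 bases and 43.2% GC (adjusted p = 0.121 in benzene and 0.0813 in air). By the principal transcript, of 1025 bases and 53.3% GC, it held (0.0173 in benzene and 1.15e-04 in air).

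Mpc1 averaged 239 ± 11.6 CPM in TAC/Benzene, 236 ± 17.3 CPM in TAC/Air, 252 ± 27.8 CPM in Sham/Benzene and 277 ± 37.7 CPM in Sham/Air. Its log2 fold change with TAC was -0.08 ± 0.09 in benzene (adjusted p = 0.67) and -0.23 ± 0.09 in air (adjusted p = 0.0874, edgeR). DESeq2 called it lower in air (adjusted p = 0.0404). The read ratio of Mpc1 to Mpc2 had medians of 0.713 in TAC/Benzene, 0.764 in TAC/Air, 0.619 in Sham/Benzene and 0.662 in Sham/Air, with overlap of all groups.

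Ucp3 had the lowest TAC fold change of the 9 genes. Its lowest, median and highest levels were 15.4, 18.8 and 21.4 CPM in TAC/Benzene and 15.3, 16.2 and 17.5 CPM in TAC/Air. Sham/Benzene had 20.6, 52.1 and 60.7 CPM and Sham/Air 27.1, 30.8 and 32.9 CPM. In benzene, Sham/Benzene replicate 4 at 20.6 CPM lay inside the TAC/Benzene range, replicate 3 was at 28.9 CPM, and the other 4 were at 48.5 CPM or above. In air all TAC libraries were below all sham libraries. With TAC, Ucp3 fell to 0.416 of the sham level in benzene (log2 fold change -1.26 ± 0.18, adjusted p = 9.25e-06) and to 0.532 in air (-0.91 ± 0.18, adjusted p = 7.82e-04; edgeR). Over the 33 alternatives it stayed called, between -1.42 and -1.17 in benzene and between -1.02 and -0.89 in air.

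**Figure D4:**
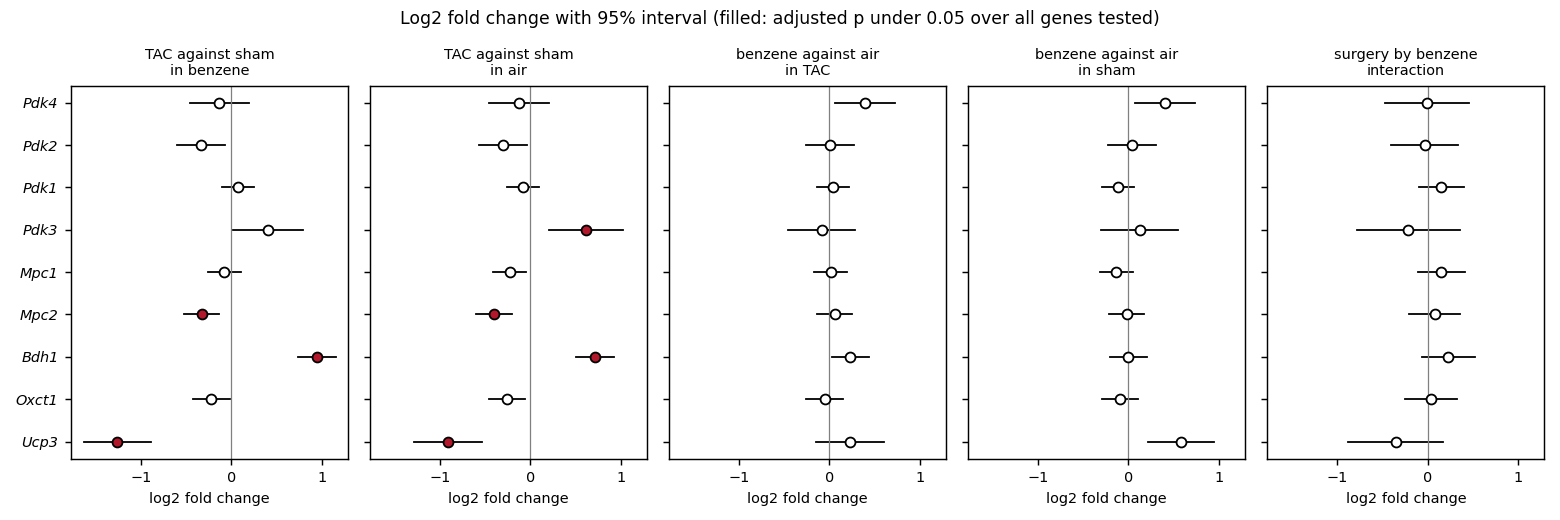
Log2 fold changes (horizontal axis) of the 9 genes in TAC against sham in benzene, TAC against sham in air, benzene against air in TAC hearts, the same in sham hearts, and the interaction of surgery and benzene. Lines are 95% intervals and filled points passed an adjusted p under 0.05 over all 13571 genes. Filled points are at Bdh1, Mpc2 and Ucp3 in benzene and at Bdh1, Pdk3, Mpc2 and Ucp3 in air, and no point is filled in the other 3 panels.

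In TAC hearts, benzene against air gave no call among the 9 genes, where 0.582% of all tested genes were called (edgeR). At an unadjusted p under 0.05 there were 2, Pdk4 and Bdh1, and limma-voom called these 2 while DESeq2 called 0. The same 2 genes were those whose TAC/Benzene and TAC/Air libraries did not overlap, 2 of 9 against 2.70% of all genes. All 6 TAC/Benzene libraries were above all 6 TAC/Air libraries for both. Pdk4 was 1.32-fold the air level (log2 fold change 0.40 ± 0.16, 95% interval 0.07 to 0.72, adjusted p = 0.57). Bdh1 was 1.17-fold (0.23 ± 0.10, interval 0.03 to 0.44, adjusted p = 0.662; edgeR).

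Both differences passed under some other settings. With only the TAC groups in the fit, the adjusted p was 0.00465 for Pdk4 (log2 fold change 0.39) and 0.0181 for Bdh1 (0.23). With the GC trend removed by principal transcripts it was 0.026 for Pdk4 and 0.0209 for Bdh1, by longest transcripts 0.0442 for Pdk4 and 0.0209 for Bdh1, and by limma-voom 0.0381 for Pdk4 and 0.00197 for Bdh1. Without Sham/Air replicate 1, which is in neither group but enters the shared spread, Bdh1 passed (adjusted p = 0.0099). The log2 fold change lay between 0.37 and 0.43 for Pdk4 and between 0.21 and 0.25 for Bdh1 over all 33 settings, in the same direction in each. The other 7 genes lay between -0.09 for Pdk3 and 0.23 for Ucp3, which had adjusted p = 1 each.

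The Pdk4 to Pdk1 read ratio within a library does not depend on library scaling. It reuses the Pdk4 counts above and is no separate check of them. It ran from 0.856 to 0.979 in TAC/Benzene against 0.693 to 0.786 in TAC/Air. In sham hearts it ran from 0.659 to 1.25 with benzene against 0.653 to 0.905 in air. The ranges were apart in TAC hearts and overlapped in sham hearts. Sham/Benzene replicate 4 had the lowest ratio of its group and the others 0.989 or more. The Pdk4 to Pdk2 read ratio overlapped in TAC hearts, from 0.768 to 1.09 in TAC/Benzene against 0.580 to 0.882 in TAC/Air. In sham hearts it also overlapped, from 0.386 to 1.10 with benzene against 0.407 to 1.71 in air. Neither ratio was tested, nor was the part of the GC trend in them.

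In sham hearts, benzene against air also gave no call among the 9 genes, where 3 of 13571 genes, 0.0221%, were called (edgeR). No gene had groups without overlap, against 0.280% of all genes. At an unadjusted p under 0.05 there were 2, Ucp3 and Pdk4, and DESeq2 and limma-voom each called 0. Ucp3 had a log2 fold change of 0.58 ± 0.18 (95% interval 0.22 to 0.95, adjusted p = 0.503) and was 85th by p among all genes. The 4 highest Sham/Benzene libraries were above all Sham/Air libraries and the 2 lowest were not. Over single libraries left out its value ran from 0.49 to 0.74, and no setting called it. Pdk4 was at 0.41 ± 0.16 (interval 0.08 to 0.73, adjusted p = 0.794). For Pdk4, Sham/Benzene replicate 4 was the lowest of its group at 188.2 CPM, and Sham/Air replicate 1 the highest of its group at 406.6 CPM. Without the Sham/Air library the value was 0.58, and with the GC trend removed by principal transcripts it was 0.50 and passed (adjusted p = 0.0489). With the trend removed by longest transcripts it was 0.47 and did not pass (adjusted p = 0.0919), although the Pdk4 transcript is the same in both. The other 7 genes lay between -0.14 for Mpc1 and 0.12 for Pdk3.

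The interaction asks whether the TAC effect differed between benzene and air. None of the 9 genes was called, where 0.169% of all genes were (edgeR). At an unadjusted p under 0.05 there were 0, DESeq2 called 0, and limma-voom called Bdh1. Bdh1 had a log2 difference of 0.23 ± 0.14 (interval -0.06 to 0.52, adjusted p = 1). By limma-voom it was 0.31 (adjusted p = 0.025), and without Sham/Air replicate 1 it was 0.34 (0.0266). For Ucp3 the difference was -0.35 ± 0.25 (interval -0.88 to 0.17) and for Pdk4 -0.01 ± 0.23 (interval -0.47 to 0.46). Differences inside those intervals are not excluded by these libraries.

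Compared per kilobase of principal transcript, the 9 genes spanned a wide range of levels. In TAC/Air, Oxct1 led with 524 ± 50.2 CPM per kilobase, followed by Mpc2 at 310 ± 46.8 and Mpc1 at 247 ± 18.02. Pdk2 stood at 154 ± 13.99, Bdh1 at 87.2 ± 4.36, Pdk4 at 67.9 ± 6.35 and Pdk1 at 62.8 ± 4.67, all in CPM per kilobase. Ucp3 at 6.62 ± 0.33 and Pdk3 at 1.95 ± 0.34 came last. Pdk4 and Pdk1 were neighbours within their spread there. In Sham/Air the order of the middle genes differed: Pdk4 had 74.2 ± 21.8, Pdk1 66.4 ± 10.3 and Bdh1 53.0 ± 10.5 CPM per kilobase, which lie within each other's spread.

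The other genes of the pathway were followed as lists. Over all genes tested, 8.67% were called higher and 7.97% lower with TAC in benzene, and 8.81% and 7.35% in air (edgeR). The median log2 fold change over all genes was -0.0045 in benzene and -0.013 in air. These shares and medians stand beside each list below. Of 8 genes of the pyruvate dehydrogenase complex and its phosphatases, 3 were called lower with TAC in benzene and 4 in air, and none higher (edgeR). The phosphatase Pdp2, which switches the complex on, had the lowest fold change of the list. Its mean was 23.3 ± 1.06 CPM in TAC/Benzene against 45.5 ± 7.67 CPM in Sham/Benzene (log2 fold change -0.97 ± 0.10, adjusted p = 7.79e-08). In air it was 25.5 ± 2.94 CPM in TAC hearts against 44.9 ± 3.49 CPM in sham hearts (-0.82 ± 0.10, 1.41e-06). Pdha1, the E1 alpha subunit that the Pdk kinases phosphorylate, was at -0.30 ± 0.06 in benzene (7.12e-04) and -0.32 ± 0.06 in air (4.93e-04). The phosphatase Pdp1 passed in benzene (-0.41 ± 0.14, 0.0415), and Dlat, the E2 core subunit, passed in air (-0.42 ± 0.10, 0.00405). Dld, the E3 subunit, named after its values were seen, was the fourth in air (-0.54 ± 0.15, 0.0151). The median over the list was -0.28 in benzene and -0.35 in air. In benzene 5 of the list passed with DESeq2, with only the 2 groups in the fit, with either GC correction and without Sham/Benzene replicate 4, and 6 with limma-voom and without Sham/Air replicate 1. In air 2 passed with only the 2 groups in the fit and 7 without TAC/Air replicate 4.

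Of 9 genes of lactate and pyruvate exchange, 4 were called lower with TAC in each exposure (edgeR). The share of all genes called lower was 7.97% in benzene and 7.35% in air. Ldhb, the lactate dehydrogenase subunit abundant in heart, was at -0.54 ± 0.07 in benzene (adjusted p = 5.12e-06) and -0.56 ± 0.07 in air (3.89e-06). The alanine aminotransferase Gpt2 was at -0.78 ± 0.09 in benzene (2.82e-07) and -0.65 ± 0.09 in air (6.76e-06). The monocarboxylate carrier Slc16a7 was at -1.09 ± 0.21 in benzene (5.33e-04) and -0.65 ± 0.22 in air (0.0366). Gpt, a relative of Gpt2, was at -0.97 ± 0.23 in benzene (0.00345) and -0.88 ± 0.23 in air (0.00853). The carrier Slc16a3, named after its values were seen, was the only one called higher, in benzene (1.09 ± 0.35, 0.0298). With only the 2 groups in the fit, 2 of the list passed in air. The list's median was -0.088 in benzene and -0.081 in air.

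Of 5 tested genes of ketone body synthesis and use, 1 was called lower with TAC in both exposures (edgeR): Acat1, the thiolase that splits acetoacetyl-CoA. It averaged 686 ± 19.9 CPM in TAC/Benzene against 865 ± 55.6 CPM in Sham/Benzene (log2 fold change -0.33 ± 0.07, adjusted p = 5.27e-04). In air it averaged 706 ± 30.5 CPM in TAC hearts against 870 ± 54.8 CPM in sham hearts (-0.30 ± 0.07, 0.00168). TAC and sham libraries did not overlap in either exposure. Aacs, a cytosolic enzyme that activates acetoacetate for lipid synthesis, did not pass in benzene (0.60 ± 0.21, 0.0506) and passed as higher in air (0.67 ± 0.22, 0.0342). The call of Aacs in air was lost with only the 2 groups in the fit and without Sham/Air replicate 2, 3 or 6 or TAC/Air replicate 1, 2, 3 or 6. In benzene, DESeq2 called 3 of the list and limma-voom 4. There edgeR called 3 with only the 2 groups in the fit, 4 with either GC correction and without Sham/Air replicate 1, and 2 without Sham/Air replicate 5, Sham/Benzene replicate 3 or 4, TAC/Air replicate 4 or TAC/Benzene replicate 4. The list's median was 0.28 in benzene and 0.020 in air. Oxct2a had no read in any library and Oxct2b had reads in 1 library, and neither was tested.

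Of 5 tested genes of anaplerosis and malic enzymes, 0 passed in either exposure (edgeR). In benzene 2 had an unadjusted p under 0.05, and DESeq2 and limma-voom each called 2. In air 0 had, and DESeq2 called 0 and limma-voom 3. With either GC correction 1 passed in benzene and 2 in air, and without Sham/Air replicate 1 there were 2 in benzene and 3 in air. In benzene 2 passed with only the 2 groups in the fit, and 1 without the filter on low counts or without Sham/Air replicate 6 or Sham/Benzene replicate 2 or 3. The 2 with the smallest p were the malic enzymes Me2 (0.37 ± 0.13 in benzene and 0.25 ± 0.13 in air) and Me3 (-0.39 ± 0.15 in benzene and -0.28 ± 0.15 in air). The list's median was -0.034 in benzene and -0.18 in air. Of 4 other uncoupling proteins tested, 0 passed in either exposure by edgeR or DESeq2. At an unadjusted p under 0.05 there were 1 in benzene and 0 in air, and limma-voom called 1 in benzene and 0 in air. In benzene edgeR called 1 with either GC correction and without Sham/Air replicate 1 or Sham/Benzene replicate 5. Those with the smallest p were Slc25a27 (-0.34 ± 0.14) and Slc25a30 (0.31 ± 0.19) in benzene, and Slc25a30 (0.34 ± 0.20) and Ucp2 (0.21 ± 0.16) in air. The list's median was 0.0070 in benzene and 0.22 in air.

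Of 13 regulators of Pdk4 and Ucp3, the same 4 were called lower in both exposures. Among all genes tested, 7.97% were called lower in benzene and 7.35% in air. Klf15, a factor of fasting metabolism, was at -0.50 ± 0.10 in benzene (adjusted p = 5.16e-04, edgeR) and -0.60 ± 0.10 in air (8.75e-05). Lpin1, known in liver as a coactivator of PPAR-alpha, was at -0.30 ± 0.07 in benzene (0.00566) and -0.49 ± 0.08 in air (3.30e-05). Ppara itself was at -0.43 ± 0.10 in benzene (0.00381) and -0.42 ± 0.10 in air (0.00558). Its coactivator Ppargc1a was at -0.86 ± 0.19 in benzene (0.00164) and -0.71 ± 0.19 in air (0.00889). The list's median was -0.19 in benzene and -0.25 in air. With the GC trend removed, 7 of the list passed in air.

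Of 15 textbook targets of PPAR-alpha, 7 were called lower in benzene and 6 in air, and none higher (edgeR). The share called lower over all genes was 7.97% in benzene and 7.35% in air. Acot1, a fatty acyl-CoA thioesterase, averaged 6.53 ± 0.89 CPM in TAC/Benzene against 17.4 ± 3.84 CPM in Sham/Benzene (log2 fold change -1.41 ± 0.14, adjusted p = 3.69e-08). In air it averaged 6.03 ± 0.85 CPM in TAC hearts against 17.3 ± 1.85 CPM in sham hearts (-1.52 ± 0.15, 1.68e-08). Reads of Acot1 and its close relative Acot2 can be split in counting. Acadm, an enzyme of fatty acid beta-oxidation, was at -0.62 ± 0.08 in benzene (1.47e-06) and -0.60 ± 0.08 in air (3.42e-06), and Hadha, another, was at -0.59 ± 0.08 in benzene (1.47e-06) and -0.57 ± 0.08 in air (3.19e-06). The list's median was -0.42 in benzene and -0.35 in air. With the GC trend removed, 10 of the list passed in air. Ucp3 and Pdk4 were not counted in this list.

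**Figure D5:**
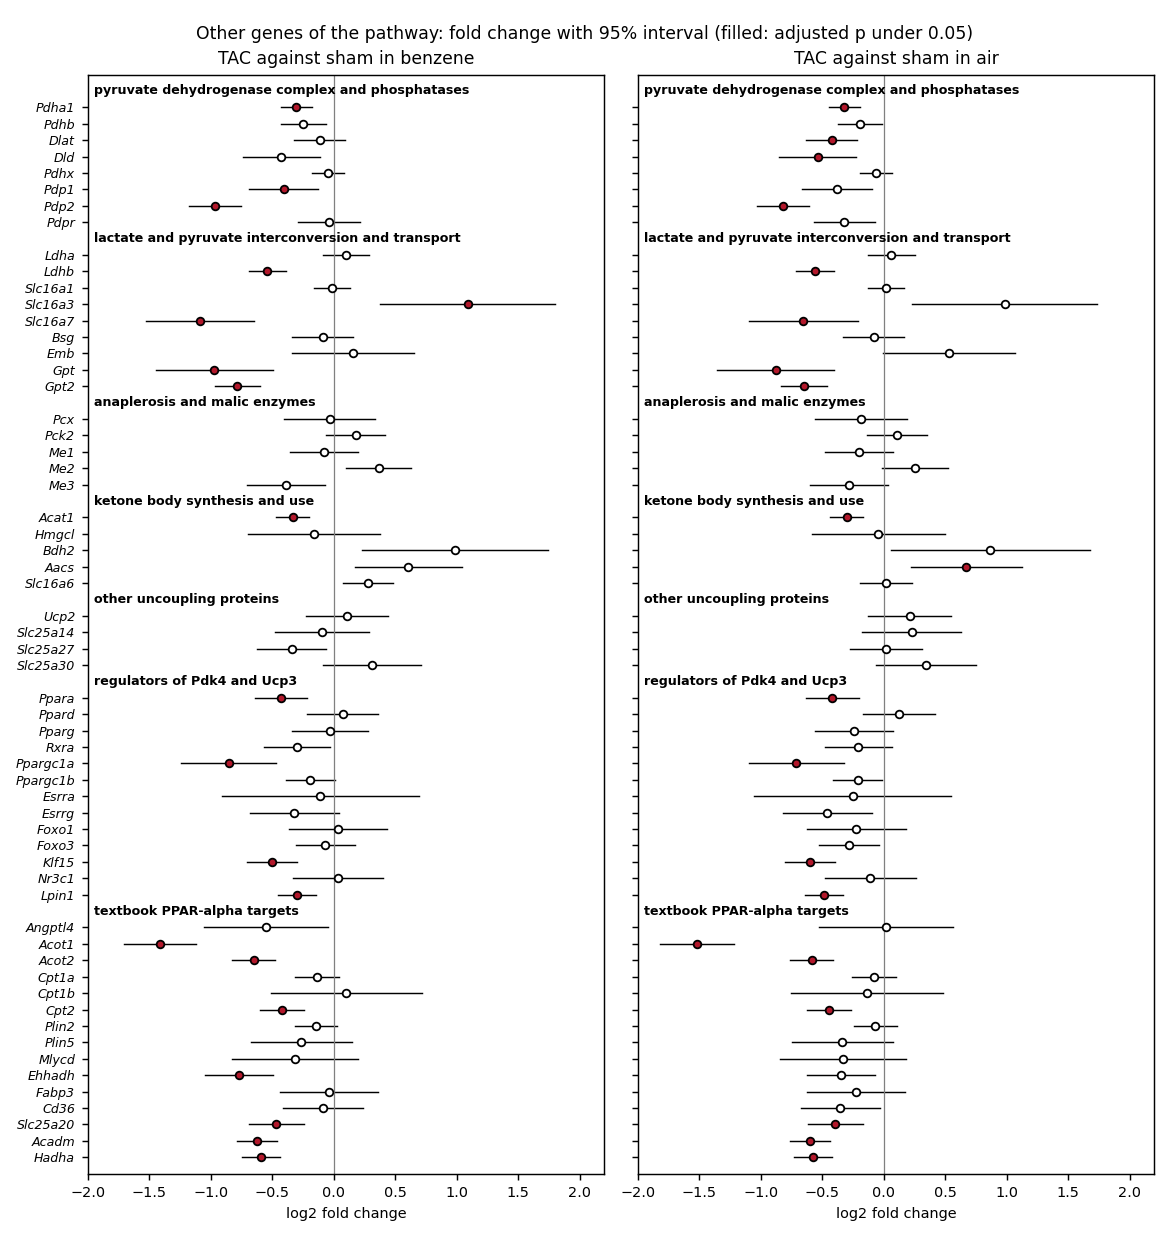
Log2 fold change (horizontal axis) with its 95% interval for the 59 tested genes of the 7 pathway lists, for TAC against sham in benzene on the left and in air on the right. Filled points passed an adjusted p under 0.05 over all genes tested. The filled points of the regulators and of the PPAR-alpha targets all lie below 0, and the only filled points above 0 are Slc16a3 in benzene and Aacs in air.

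Of these 59 pathway genes, 0 were called for benzene against air in TAC hearts or in sham hearts, and 0 for the interaction (edgeR). Of all genes tested, 0.582% were called in TAC hearts, 0.0221% in sham hearts and 0.169% for the interaction. At an unadjusted p under 0.05 there were 2 of the pathway genes in TAC hearts, 5 in sham hearts and 2 for the interaction. DESeq2 called 0, 0 and 1 in those comparisons and limma-voom 0, 0 and 0.

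Some marker genes of heart muscle cells, mitochondria and fibroblasts also moved with TAC. As fewer cells and less RNA per cell cannot be told apart, this is not a measure of cell makeup. In air, the cardiomyocyte markers Actn2, Myl3, Mybpc3 and Actc1 and the fibroblast markers Pdgfra, Dcn and Tcf21 did not pass. Over all genes, 8.67% were called higher and 7.97% lower in benzene, and 8.81% and 7.35% in air (edgeR). Of 10 cardiomyocyte markers, 5 were called lower with TAC in benzene and 6 in air. Their summed level was 59440 to 67170 CPM in TAC/Benzene and 56320 to 69210 CPM in TAC/Air, against 72890 to 89510 CPM in Sham/Benzene and 81130 to 106200 CPM in Sham/Air. Myh6 averaged 15541 ± 1816 CPM in TAC/Air against 28582 ± 6757 CPM in Sham/Air, so the labelled heart muscle was present in all libraries. Of 10 nuclear genes of mitochondrial content, 6 were called lower in each exposure, with sums of 14170 to 14380 CPM in TAC/Benzene, 14040 to 14950 CPM in TAC/Air, 16280 to 19390 CPM in Sham/Benzene and 15800 to 19120 CPM in Sham/Air. Of 8 fibroblast markers, 5 were called higher in each exposure, with sums of 3796 to 4378 CPM in TAC/Benzene, 3988 to 4658 CPM in TAC/Air, 1563 to 2024 CPM in Sham/Benzene and 1541 to 3413 CPM in Sham/Air. None of these markers was at 0 in a whole group, and their part in the falls of Ucp3 and Mpc2 and in the rise of Bdh1 was not tested.

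Markers of other cells were checked for the benzene comparisons as well. There, 0.582% of all genes were called in TAC hearts, 0.0221% in sham hearts and 0.169% for the interaction (edgeR). All 5 tested neutrophil markers were higher in TAC/Benzene than in TAC/Air, and the 7 listed summed to 41.1 to 50.9 CPM against 9.49 to 14.1 CPM, with Ly6g at 0 in TAC/Air. Sham groups had 7.12 to 20.6 CPM with benzene and 10.3 to 15.3 CPM in air. All 5 were also called higher with TAC in benzene (median log2 fold change 1.89), 4 of 5 were called in the interaction, and Mmp8 was lower with TAC in air. Of 8 macrophage and monocyte markers, Cd68 was lower with TAC in benzene, 4 were higher with TAC in air, and Adgre1 was lower with benzene in TAC hearts. Their sums were 533 to 570 CPM in TAC/Benzene, 621 to 679 CPM in TAC/Air, 491 to 610 CPM in Sham/Benzene and 549 to 578 CPM in Sham/Air. The part of these 2 lists in the Pdk4, Bdh1 and Ucp3 differences was not tested. Endothelial markers summed to between 1198 and 1533 CPM over all groups, and 1 of 8, Cdh5, was called, higher with TAC in benzene. Skeletal muscle also makes Ucp3. Its 8 markers summed to at most 2.87 CPM in TAC/Benzene, 3.61 CPM in TAC/Air, 5.28 CPM in Sham/Benzene and 4.23 CPM in Sham/Air, with Myh4 at 0 in both air groups, and 1 of 3 tested, Tnni2, was lower with TAC in benzene. Adipocyte markers, Ucp1 among them at no more than 0.10 CPM in any library, summed to between 16.5 and 41.8 CPM over all groups, and 1 of 3 tested, Cfd, was lower with TAC in benzene. Most of that sum was Cidea, with group means of 33.5 CPM in TAC/Benzene, 29.6 CPM in TAC/Air, 26.5 CPM in Sham/Benzene and 25.4 CPM in Sham/Air. Adipoq averaged 0.296, 0.560, 0.756 and 0.993 CPM in the same groups. Hepatocyte markers reached 118 CPM in a Sham/Benzene library and 2.60 CPM or less in the other groups, and 1 of 2 tested, Apoa2, was lower with TAC in benzene. Lung epithelium markers summed to 7.10 to 10.5 CPM in Sham/Air and to at most 2.07 CPM in any other group, so they moved with both comparisons against Sham/Air. Of 2 tested, 2 were called lower with TAC in air, 2 lower with benzene in sham hearts and 1, Scgb1a1, lower with TAC in benzene. The part of these 4 lists was not tested.

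Genes whose library-to-library deviations were most like those of a member were named over the 24 libraries, after the group mean was taken from each. The closest to Pdk4 were Fam214a (r = 0.908), Cyp1b1 (0.906) and Gpcpd1 (0.889). Without Sham/Air replicate 1 these were 0.868, 0.89 and 0.839. Closest to Ucp3 were Ripor2 (0.74), Myom2 (0.738) and Phf20 (0.698), and without that library 0.748, 0.738 and 0.712. For Bdh1 the closest were Coasy (0.984), Popdc2 (0.979) and Bst2 (0.978), which dropped to 0.86, 0.787 and 0.769 without it. For Oxct1 they were Gmps (0.971), Septin2 (0.966) and Hsdl2 (0.966), with 0.95, 0.95 and 0.948 without it. Among the members, Pdk1 and Oxct1 deviated together (0.95), and Pdk2 and Oxct1 in opposite directions (-0.901). Pdk4 and Ucp3 had r = 0.532, and 0.68 without Sham/Air replicate 1, but within groups r was positive in Sham/Benzene alone (0.877). It was -0.477 in TAC/Benzene, -0.102 in TAC/Air and -0.523 in Sham/Air (n = 6 each). Spearman correlations were 0.543 in Sham/Benzene, -0.143 in TAC/Benzene, -0.429 in TAC/Air and -0.829 in Sham/Air. Sham/Benzene replicate 4 was the lowest of its group for both genes. The libraries differed in GC trend and depth, and the part of these in the correlations was not tested. The correlations are descriptions and were given no test.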

How the data were processed

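The authors deposited raw whole-number counts by gene symbol for the 24 libraries, in a single table. Per the submitters' processing notes, the tools were STAR, FastQC 0.11.9 and DESeq2, with genome build mm9. What counted the reads, with which annotation and strand setting, is not given in the sources. Genes were filtered with edgeR 4.0.16 (R 4.3.3; minimum count 10, minimum total 15), which left 13571 of 25229 symbols. Left-out genes held 0.0747% of the counts. Library sizes were scaled by TMM. A robust quasi-likelihood fit with 1 coefficient per group gave 5 contrasts. A gene passed when its Benjamini-Hochberg adjusted p over all 13571 genes was under 0.05. Standard errors were derived from each F statistic. The steps were tested on simulated data.

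Alternatives were DESeq2 1.42.0, limma-voom 3.58.1 with quality weights, RLE size factors, a fit of 2 groups alone, a replicate block, no filter, a filter at 1 CPM on average, and leaving out each library. Loess offsets (span 0.5) for GC content and length, by the longest or the principal GENCODE vM21 transcript, were chosen after seeing the data. Together these are 33 settings, and 32 for the interaction, which has no fit of only 2 groups.

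The members and the gene lists were chosen with earlier results of these data known. Named genes are all 9 members, up to 3 called genes per pathway list and TAC contrast by smallest p (where 0 passed, the 2 with the smallest p), and for 4 members the 3 genes with the highest correlation among those with a mean of at least 10 CPM. Marker genes, and a few others where it is said, were named after their values were seen. Of the listed symbols, 1 marker, an older name of a gene that is listed, was not in the table. 1 listed gene is not reported here. RefSeq promoters matched all 9 members and are of another build than the counts. Intervals and tests cover the spread between these libraries.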

Additional observations from a re-analysis of the deposited data

Results flagged for a closer look

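In the Sham/Air group, replicate 1 stood far from the other 5 libraries for 4 of the 9 genes. It had 406.6 CPM of Pdk4, where the nearest other library had 256.2 CPM, and 449.2 CPM of Pdk1, where the nearest had 344.0 CPM. It had only 238.1 CPM of Pdk2, where the nearest had 406.9 CPM, and 101.1 CPM of Bdh1, where the nearest had 165.1 CPM. In each, the gap as a share of the range of the group (0.742 for Pdk4, 0.637 for Pdk2, 0.734 for Pdk1 and 0.708 for Bdh1) was past the 95% critical value of Dixon's test for 6 libraries. Of 36 groups of values (9 genes in 4 groups), these 4 passed, and chance alone gives about 5%. The same library had the lowest total count and the most negative rank correlation with GC content, -0.71, relative to the average library. The part of either in these values was not tested.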

How the results depend on the processing

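The calls of Bdh1 and Ucp3 with TAC held in all 33 alternatives. Counts of genes called changed most. For TAC in benzene (2257) there were 4497 with limma-voom and 3645 or 3773 with GC offsets by longest or principal transcript, and for TAC in air (2193) 3739 with limma-voom, 1278 with only 2 groups and 3740 or 3849 with GC offsets. For benzene in TAC (79) there were 164 with DESeq2, 556 with limma-voom, 276 with only 2 groups, 46 with the replicate block and 232 or 250 with GC offsets. For benzene in sham (3) there were 25 with DESeq2, 6 with limma-voom, 1 without the filter, 1 with only 2 groups and 12 or 17 with GC offsets. For the interaction (23) there were 55 with DESeq2, 93 with limma-voom, 14 with the replicate block and 61 or 62 with GC offsets. Leaving out 1 library gave 1929 to 3667 genes for TAC in benzene, 1907 to 3169 in air, 52 to 234 for benzene in TAC, 1 to 5 in sham and 15 to 49 for the interaction. The highest count came without Sham/Air replicate 1, except for benzene in sham.

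Of the 9 genes, 3 were called with TAC in benzene, against 6 with limma-voom, 5 with only 2 groups, 5 with GC offsets by principal transcript, and 3 to 5 with 1 library left out. With TAC in air 4 were called, against 6 with DESeq2, 5 with limma-voom, 3 with only 2 groups, 5 or 6 with GC offsets by longest or principal transcript, and 3 to 5 with 1 library left out. For benzene in TAC, 2 were called with limma-voom, with only 2 groups and with either GC offset, and 0 to 1 with 1 library left out. For benzene in sham, 1 was called with GC offsets by principal transcript and 0 with any library left out. For the interaction, 1 was called with limma-voom and 0 to 1 with 1 library left out. The cause of these differences was not tested.

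Reversed log2 values, none past the threshold, were these. Limma-voom gave 0.077 for Pdk4 and 0.015 for Pdk1 with TAC in air, -0.033 for Pdk2 and 0.046 for Mpc2 with benzene in sham, and 0.037 for Pdk2 and -0.045 for Oxct1 in the interaction. GC offsets by longest transcript gave -0.052 for Pdk2 with benzene in TAC, -0.17 for Pdk2 and 0.040 for Mpc2 with benzene in sham, and 0.12 for Pdk2 in the interaction. By principal transcript they gave 0.012 for Mpc1 with TAC in benzene, -0.050 for Pdk2 with benzene in TAC, -0.16 for Pdk2 with benzene in sham and 0.11 for Pdk2 in the interaction. Without the filter Pdk2 was at -4.8e-04 with benzene in TAC and Bdh1 at 0.0050 with benzene in sham. The replicate block gave 0.0096 for Bdh1 with benzene in sham. DESeq2 and RLE factors gave 0.0024 and 0.0046 for Pdk4 in the interaction. Leaving out 1 library turned values near 0: with TAC in air Pdk4 ran from -0.19 to 0.048 and Pdk1 from -0.12 to 0.0094. With benzene in TAC, Pdk2 ran from -0.039 to 0.039 and Mpc1 from -0.024 to 0.036. With benzene in sham, Pdk2 ran from -0.084 to 0.091, Pdk3 from -0.047 to 0.23, Mpc2 from -0.053 to 0.046, Bdh1 from -0.11 to 0.046 and Oxct1 from -0.13 to 0.0042. In the interaction, Pdk4 ran from -0.18 to 0.079, Pdk2 from -0.084 to 0.089 and Oxct1 from -0.058 to 0.085.

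Same-numbered libraries of different groups did not deviate together throughout: the correlation was over 0.1 in 0 of 6 pairs for TAC in benzene, 0 of 6 for TAC in air, 5 of 6 for benzene in TAC and 4 of 6 in sham. It ran from -0.336 to 0.0608 for TAC in benzene and from -0.529 to -0.0166 for TAC in air. For benzene it ran from -0.0213 to 0.345 in TAC and from -0.0327 to 0.466 in sham. GC rank correlations were negative in replicates 1 to 3 and positive in replicates 4 to 6 of both sham groups. In TAC/Air they were positive in replicates 1 to 3 and negative in replicates 4 to 6, and in TAC/Benzene replicates 4 and 6 were negative. In no comparison was every pair over 0.1, so the numbers were not taken to pair the libraries. That does not show the libraries to be independent, and no block within each surgery was fitted. The replicate block gives each number a shift shared by all groups, so it cannot fit deviations of opposite sign in different groups. The block called 0 of the 9 genes for benzene in TAC, for benzene in sham and for the interaction, as without it. It called 3 of the 9 genes with TAC in benzene and 3 in air (without Pdk3), and did not call Aacs in air, and called 1 of the anaplerosis list with TAC in benzene. Depth limits Pdk3, with 14 to 59 reads a library.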
